A study of Mus musculus with 6 samples.

Results

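The genes described here are 9 markers of the oligodendrocyte lineage, 7 of its precursor cells (Pdgfra, Cspg4, Olig1, Olig2, Sox10, Gpr17 and Ptprz1) and 2 of myelin (Mbp and Cnp). They were chosen by gene symbol among the 55416 genes of the deposited table, and each matched 1 row. Values are in FPKM, the fragments of a gene divided by its transcript length and by the total of its library. The libraries are from cultured wild-type mouse primary neurons from brain, infected with an adeno-associated virus (AAV) whose synapsin promoter is active in neurons. In 3 libraries the AAV carried miR-9-3p, and 3 libraries received a control AAV, called a scramble vector in some labels and an mCherry vector in others. The age of the animals is not given in the sources used here, and no label says that the 3 libraries within a group stem from different cultures, so a p-value here covers library-to-library spread that may be technical only.

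Oligodendrocyte precursors are dividing glial cells of the brain that carry the receptor Pdgfra and the proteoglycan Cspg4 and later mature into oligodendrocytes, which wrap axons in myelin. The transcription factors Olig2, Olig1 and Sox10 set up this lineage, the receptor Gpr17 marks its committed intermediate stage, and Mbp and Cnp encode proteins of the myelin sheath. Cultures of primary brain neurons commonly hold some of these glia. The microRNA miR-9 is abundant in neural progenitors and neurons, and a microRNA lowers messenger RNAs whose 3′ untranslated regions (UTRs) pair with its seed, bases 2 to 8.

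Both strands of the miR-9 hairpin are shown, since the vector carries the 3p strand and the 5p strand is its partner, with the seed in capitals and read 5′ to 3′ (RefSeq, GRCm38.p6). Each is the same in the 3 mouse loci, of which Mir9-1 holds miR-9-3p at chr3:88215652-88215673 and miR-9-5p at chr3:88215613-88215635, both on the plus strand. The 3 short stretches after them are the seed matches found in the 3′ UTRs of these 3 members, with the match in capitals.
miR-9-3p: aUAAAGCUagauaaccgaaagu
miR-9-5p: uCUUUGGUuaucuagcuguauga
Olig2, match to miR-9-3p: gcacaggagcaAGCTTTAcagacgcttaaa
Ptprz1, match to miR-9-3p: tacagatgtgtGCTTTAAatgtcaatggca
Cspg4, match to miR-9-5p: gttgagatgggACCAAAGcccttacgctac

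The matches searched were AGCTTTA and GCTTTAA for miR-9-3p and ACCAAAG and CCAAAGA for miR-9-5p, on the transcript's strand and in the longest annotated 3′ UTR of a gene (GENCODE M21, GRCm38). The Olig2 match lies at chr16:91228003-91228032 on the plus strand, in a UTR of 1306 bases. The Ptprz1 match lies at chr6:23003586-23003615 on the plus strand, in the UTR of a transcript that ends inside the gene, well before the gene's end at 23052916. The Cspg4 match lies at chr9:56899792-56899821 on the plus strand. Pdgfra, Olig1, Sox10 and Cnp held 0 matches to either strand in UTRs of 3115, 1274, 1030 and 932 bases. Gpr17 held 3 matches to miR-9-5p and Mbp held 1, with 0 matches to miR-9-3p in either. Of 12194 tested genes with a UTR, 20.5% held a miR-9-3p match and 23.4% a miR-9-5p match, so 2 of 9 members with a miR-9-3p match is near the share of all genes. A match is a description of the letters and was not tested as a site.

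Transcripts of lung cells were present in all 6 libraries. The lung level, a median over alveolar type 2 cell genes relative to the lowest library, was 3.19, 1.24 and 1 in miR-9-3p AAV libraries 1, 2 and 3 and 2.27, 3.20 and 11.3 in control AAV libraries 1, 2 and 3. Airway transcripts divided the libraries into 2 sets. Bpifa1 stood at 0.939% to 0.966% of Scgb1a1 in miR-9-3p AAV library 1 and control AAV libraries 2 and 3, called the high-Bpifa1 set, and at or under 0.0293% in the other three, the low-Bpifa1 set. Differences within each set are given beside the members' results. Each has 1 library on 1 side: control AAV library 1 in the low-Bpifa1 set and miR-9-3p AAV library 1 in the high-Bpifa1 set. Within each set the lung level still differed between the groups. The part of the lung transcripts in the members' results was not tested further. Depth recovered from the steps between low FPKM values was 16953251 to 17174916 reads in miR-9-3p AAV and 16001205 to 17936453 reads in control AAV. The labelled cell type had its markers: Tubb3, the neuronal tubulin, measured 527, 786 and 823 FPKM in miR-9-3p AAV and 707, 539 and 338 FPKM in control AAV.

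Pdgfra was higher and Olig1, Olig2, Gpr17 and Cnp were on average lower in miR-9-3p AAV; Pdgfra was the 1 member of 9 that passed the test. The test was limma on log2(FPKM + 1), on which the changes of low genes come out too small, with Benjamini-Hochberg adjustment over 14229 genes and a threshold of 0.05. Of the 7 precursor genes 1 was called higher, where 3.89% of all tested genes were. Of the 7, 0 were called lower by limma or by limma-voom on recovered reads, where 2.4% of all tested genes were called lower by limma, and 3 had an unadjusted p under 0.05 in that direction. Of the 2 myelin genes 0 passed in either direction by limma or limma-voom, and both had an unadjusted p under 0.05 on the lower side. Such a p was common among all genes. In the limma fit with median-of-ratios scaling, 3820 of the 14229 genes had an unadjusted p under 0.05 in either direction. Counts at that threshold, here and below, are to be read against this. The median log2 fold change was -0.13 for the precursor genes, -0.38 for the myelin genes and -0.02 for all genes tested. The libraries are bulk samples, in which fewer cells of a type and less of its RNA per cell cannot be told apart.

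**Figure D1:**
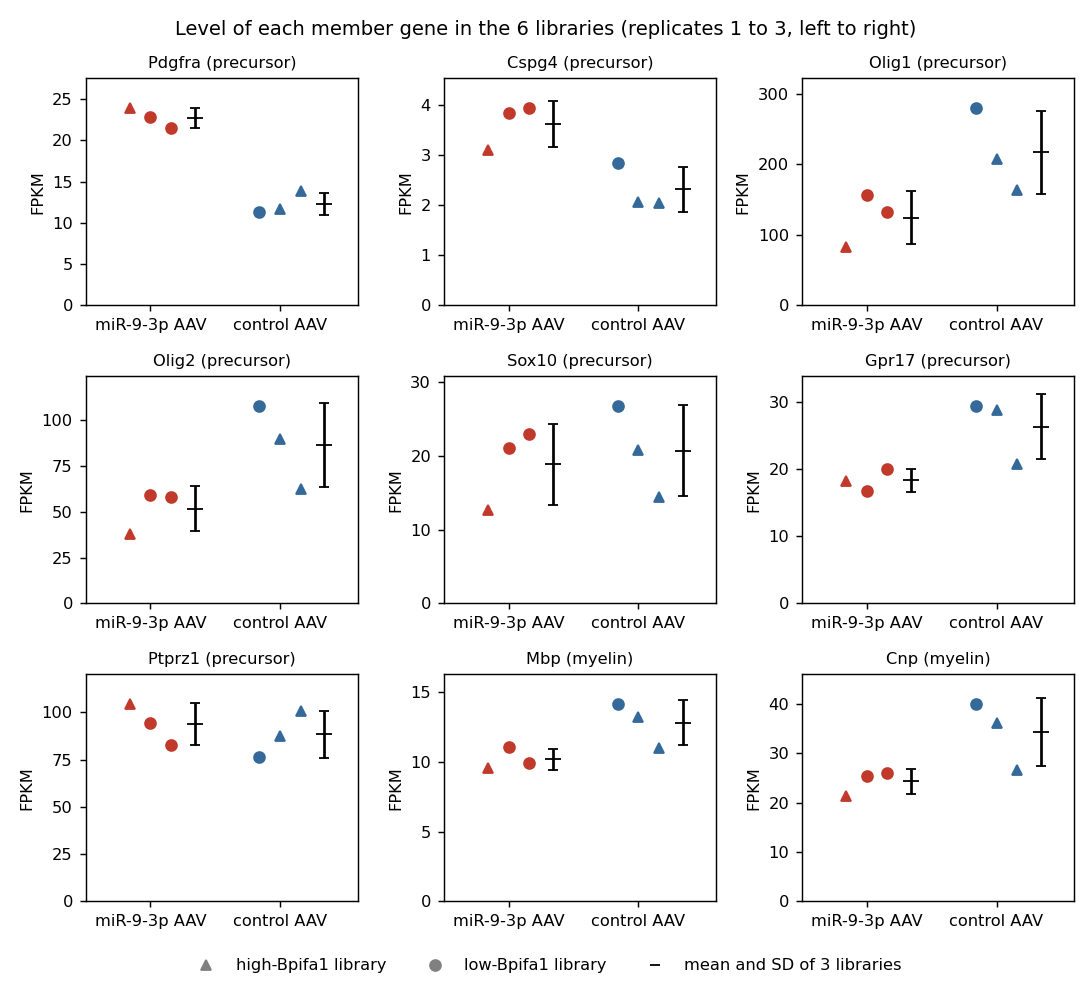
FPKM of the 9 genes in each library, with miR-9-3p AAV (red) left of control AAV (blue), triangles for the high-Bpifa1 set, circles for the low-Bpifa1 set, and black bars for the mean and SD of 3 libraries. Pdgfra and Cspg4 do not overlap on the higher side and Olig1, Olig2, Gpr17 and Cnp do not overlap on the lower side, while Sox10, Ptprz1 and Mbp overlap.

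The receptor gene Pdgfra (ENSMUSG00000029231; chromosome 5, 75152292 to 75198215, plus strand, GRCm38, the build also called mm10) encodes the receptor for PDGF-AA, the mitogen of precursor cells. Libraries 1, 2 and 3 had 23.9, 22.8 and 21.5 FPKM in miR-9-3p AAV and 11.4, 11.6 and 13.9 FPKM in control AAV. All 3 miR-9-3p AAV libraries lay above all 3 control AAV libraries. The means were 22.7 ± 1.23 FPKM in miR-9-3p AAV and 12.3 ± 1.38 FPKM in control AAV (SD, n = 3 each), and the log2 fold change was 0.84 with an SE of 0.10 (limma adjusted p = 0.0204). These values rest on 1824 to 4119 reads per library. Within the low-Bpifa1 set the log2 difference was 0.90 and within the high-Bpifa1 set 0.86. The call ended in fits without miR-9-3p AAV library 1, 2 or 3 or control AAV library 1 or 2, with limma adjusted p from 0.0641 to 0.108, in which 0 of the 14229 genes passed and 2739 to 3654 had an unadjusted p under 0.05. With the replicate number as a block the limma adjusted p was 0.25, the smallest of any gene, and 2213 genes had an unadjusted p under 0.05. In these fits, then, none of the other called genes named here passed either.

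Pdgfra is also made by fibroblasts, and the proteoglycan gene Cspg4 (also called NG2; chromosome 9, 56865033 to 56899870) by mural cells of vessels. Cspg4 measured 3.09, 3.83 and 3.93 FPKM in miR-9-3p AAV and 2.83, 2.07 and 2.04 FPKM in control AAV. The groups did not overlap, a separation on the higher side that 18.2% of tested genes also showed. Its log2 fold change was 0.48 (SE 0.14, limma adjusted p = 0.0859), with 0.35 and 0.42 within the low-Bpifa1 and high-Bpifa1 sets. It passed with the set as a batch term, an alternative known from earlier results of these data (0.39, SE 0.08, limma adjusted p = 0.0338). That model called 9.91% of tested genes higher. With each library's trend on exon length removed as well, Cspg4 did not pass (0.18, limma adjusted p = 0.199). Nor did it pass given the lung level as covariate (0.30, limma adjusted p = 0.128). Of 14 fibroblast and mural markers 8 were tested, all with a log2 fold change below 0, and 0 passed by limma or limma-voom in either direction (2 had an unadjusted p under 0.05). Their summed level was 12.4 to 24.8 FPKM in miR-9-3p AAV and 21.8 to 62.7 FPKM in control AAV. Pdgfrb, the PDGF receptor of mural cells, had a log2 fold change of -0.86 (limma adjusted p = 0.0999) and the collagen gene Col3a1 -0.87 (limma adjusted p = 0.144). Given the lung level as covariate, 4 of the 8 had a fold change above 0 and 4 below 0, with values from -0.34 for Pdgfrb to 0.26 for Myh11, the smooth muscle myosin gene. The part of these cells in the Pdgfra and Cspg4 values was not tested.

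The neighbouring genes Olig2 and Olig1 encode basic helix-loop-helix factors of the lineage and lie 41.1 kb apart on the plus strand of chromosome 16 (91225457 to 91228677 and 91269772 to 91271933). Olig2 measured 37.7, 59.3 and 58.4 FPKM in miR-9-3p AAV and 108, 90.1 and 62.2 FPKM in control AAV. Olig1 measured 83.3, 156 and 133 FPKM in miR-9-3p AAV and 279.5, 208 and 163 FPKM in control AAV. For both genes the groups did not overlap, which held on the lower side for 16.7% of tested genes, and in each group the library with the highest lung level had the lowest value. The log2 fold change was -0.73 for Olig2 (SE 0.26, limma adjusted p = 0.138) and -0.81 for Olig1 (SE 0.29, limma adjusted p = 0.138), so neither passed. Within the low-Bpifa1 set the log2 differences were -0.86 for Olig2 and -0.95 for Olig1, and within the high-Bpifa1 set -0.97 and -1.13. With the set as a batch term both passed, at -0.92 for Olig2 (SE 0.15, limma adjusted p = 0.0213) and -1.04 for Olig1 (SE 0.14, limma adjusted p = 0.0151), where 8.74% of tested genes were called lower. Both genes kept to 1 proportion: the ratio of Olig1 to Olig2 FPKM was 2.21 to 2.64 in miR-9-3p AAV and 2.31 to 2.62 in control AAV.

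Sox10, an SRY-box factor that turns on myelin genes (chromosome 15, 79154908 to 79165240, minus strand), measured 12.6, 21.1 and 23.0 FPKM in miR-9-3p AAV and 26.8, 20.85 and 14.5 FPKM in control AAV. The groups overlapped widely and the library with the highest lung level was again the lowest of each group. The log2 fold change was -0.13 (SE 0.29, limma adjusted p = 0.806), with -0.27 and -0.43 within the low-Bpifa1 and high-Bpifa1 sets, and it changed sign without miR-9-3p AAV library 1 (0.12) or control AAV library 1 (0.07). Relative to Olig2, Sox10 had FPKM ratios of 0.335 to 0.393 in miR-9-3p AAV and 0.232 to 0.249 in control AAV, which do not overlap. Olig2 itself lay lower without overlap, as given above, so this is not a further result. The ratio of Cnp to Olig2 did not overlap either (0.429 to 0.568 and 0.370 to 0.427). That of Mbp to Olig2 did (0.169 to 0.254 and 0.131 to 0.177). Such ratios were not counted over all genes. Sox10 is also the factor of Schwann cells, of whose markers Foxd3 was listed at 0 in all 6 libraries. Others of these markers were not absent. Prx had means of 2.34 FPKM in miR-9-3p AAV and 6.79 FPKM in control AAV, and S100b 4.02 and 5.66 FPKM. Prx was highest in control AAV library 3, the library with the highest lung level, at 13.4 FPKM. Whether Schwann cells were present was not tested. Of 9 Schwann cell markers 5 were tested, 0 were higher and 1 was lower by limma. Of the 5, 2 had a log2 fold change above 0 and 3 below 0. The summed level of the 9 was 29.8 to 36.5 FPKM in miR-9-3p AAV and 41.1 to 52.1 FPKM in control AAV.

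Gpr17 encodes a G protein-coupled receptor that peaks in committed, not yet myelinating cells (chromosome 18, 31942997 to 31949636, minus strand). It measured 18.2, 16.7 and 20.1 FPKM in miR-9-3p AAV and 29.4, 28.8 and 20.8 FPKM in control AAV, groups that did not overlap by a narrow margin. Its log2 fold change was -0.49 (SE 0.15, limma adjusted p = 0.105), with -0.65 and -0.41 within the low-Bpifa1 and high-Bpifa1 sets. Without control AAV library 3 it passed (-0.64, limma adjusted p = 0.0415), where 2.02% of tested genes were called lower. It did not pass with the set as a batch term (-0.53, SE 0.16, limma adjusted p = 0.0684). The gene lies inside Lims2 on the opposite strand and shares 188 exon bases with it, 3.62% of its own, and the strand setting of the counting is not given in the sources used here. Lims2 measured 7.23, 4.49 and 3.95 FPKM in miR-9-3p AAV and 7.68, 8.89 and 20.2 FPKM in control AAV. The value of Gpr17 is uncertain to that extent.

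Ptprz1 encodes a receptor tyrosine phosphatase of precursor cells, radial glia and astrocytes that binds pleiotrophin (chromosome 6, 22875502 to 23052916, plus strand). It measured 104, 94.6 and 82.5 FPKM in miR-9-3p AAV and 76.5, 87.5 and 101.02 FPKM in control AAV, so its groups overlapped. The log2 fold change was 0.09 (SE 0.14, limma adjusted p = 0.72), with 0.20 and 0.15 within the low-Bpifa1 and high-Bpifa1 sets, and it changed sign without control AAV library 1 (-0.01) and with the trend on exon length removed (-0.13). Of 14 astrocyte and radial glia markers, tested beside it because these cells share Ptprz1, 0 were higher and 4 lower by limma. They were Slc25a18, Gfap, Acsbg1 and Fabp7, with log2 fold changes of -1.90, -1.55, -0.78 and -0.72. Of the 14, 11 had a log2 fold change below 0 and 3 above 0. The 3 were Slc1a3 (0.13), Slc1a2 (0.21) and Tnc (0.33), each without overlap on the higher side and none called. The summed level of the 14 was 923 to 969 FPKM in miR-9-3p AAV and 1456 to 1616 FPKM in control AAV, without overlap. Fabp7 was the largest part of this sum, with means of 501 FPKM in miR-9-3p AAV and 825 FPKM in control AAV.

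The myelin genes were on average lower in miR-9-3p AAV and did not pass. Cnp, whose product is a phosphodiesterase of non-compact myelin (chromosome 11, 100574904 to 100591729, plus strand), measured 21.4, 25.4 and 26.0 FPKM in miR-9-3p AAV and 39.9, 36.0 and 26.6 FPKM in control AAV. The highest miR-9-3p AAV library and the lowest control AAV library nearly met. The log2 fold change was -0.46 (SE 0.17, limma adjusted p = 0.144), with -0.61 and -0.51 within the low-Bpifa1 and high-Bpifa1 sets. It passed without control AAV library 3 (-0.63, limma adjusted p = 0.0473), the library with the highest lung level, and with the set as a batch term (-0.56, SE 0.13, limma adjusted p = 0.0383). In these fits 2.02% and 8.74% of tested genes were called lower. Cnp shares 154 exon bases with Dnajc7 on the opposite strand, 4.23% of its own.

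Mbp, which encodes the basic protein that compacts the myelin sheath and, from an upstream start, the golli proteins of other cells (chromosome 18, 82475146 to 82585637, plus strand), measured 9.58, 11.025 and 9.88 FPKM in miR-9-3p AAV and 14.1, 13.2 and 10.999 FPKM in control AAV. The groups met: the highest miR-9-3p AAV value lay just above the lowest control AAV value. The log2 fold change was -0.30 (SE 0.11, limma adjusted p = 0.158), with -0.40 and -0.30 within the low-Bpifa1 and high-Bpifa1 sets. The table sums all transcripts of the gene, so its myelin and golli forms cannot be told apart.

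**Figure D2:**
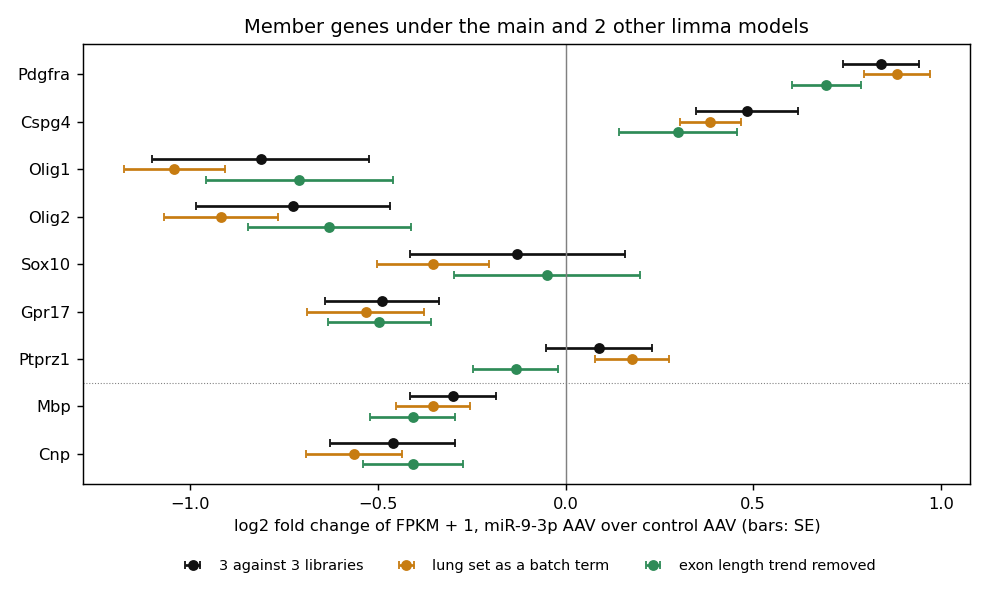
Log2 fold changes of the 9 genes with their SE in 3 limma models: all 6 libraries, with the lung set as batch term, and with each library's trend on exon length removed. Pdgfra lies between 0.69 and 0.88 and Olig1 between -1.04 and -0.71 in the 3 models, and Ptprz1 lies on either side of 0.

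The calls moved with the way the lung transcripts were handled. Given the lung level as covariate, where 12.6% of tested genes were called higher and 16.1% lower, Pdgfra (log2 fold change 0.99) and Ptprz1 (0.32) were higher and Olig1 (-1.34), Olig2 (-1.24), Sox10 (-0.70), Gpr17 (-0.71), Mbp (-0.46) and Cnp (-0.78) lower, all by limma. Leaving out miR-9-3p AAV library 1 and control AAV library 3, the highest in lung level of each group, left Pdgfra higher (0.89) and Olig2 (-0.73), Gpr17 (-0.64) and Cnp (-0.54) lower by limma, where 5.53% of tested genes were higher and 5.99% lower. Without control AAV library 3 alone, those shares were 3.23% and 2.02%. Of the members limma-voom called Pdgfra alone, at 0.87, and it called 3.71% of tested genes higher and 2.98% lower. With each library's trend on G+C share removed, a step chosen after seeing the data, Pdgfra and Cspg4 were higher and Olig1, Olig2, Gpr17 and Cnp lower, where 9.24% of tested genes were higher and 7.47% lower.

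The precursor genes did not keep 1 proportion to each other. The ratio of Pdgfra to Olig2 FPKM was 0.636, 0.385 and 0.368 in miR-9-3p AAV libraries 1, 2 and 3 and 0.105, 0.129 and 0.223 in control AAV libraries 1, 2 and 3. The lowest miR-9-3p AAV ratio was above the highest control AAV ratio. This follows from the values above, where Pdgfra lay higher and Olig2 lower without overlap, so it is not a further result. A ratio within a library does not depend on the library's total. It can still vary with the lung level: in each group the library with the highest lung level had the highest ratio. With 3 against 3 libraries an exact permutation test cannot give a two-sided p under 0.1, so none is given. The ratio of Pdgfra to Cspg4 was 5.46 to 7.75 in miR-9-3p AAV and 4.02 to 6.82 in control AAV, which overlap. All 9 members had the same sign of difference in both Bpifa1 sets, as did 80.3% of all tested genes.

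Exon length was 10.02 kb for Pdgfra, 11.9 kb for Cspg4 and 14.2 kb for Ptprz1, the 3 members with a log2 fold change above 0, and 2.16 to 8.47 kb for the 6 others. The G+C share of the longest transcript was 48.1% for Pdgfra, 59.2% for Cspg4 and 44.5% for Ptprz1, and 51.0% to 61.8% for the 6 others. Across 14097 tested genes with an annotated length, the log2 fold change rose with exon length (Spearman rho 0.27) and fell with G+C share (rho -0.18), a description over genes, which share the libraries and are not replicates. The median was -0.14 for genes of 2 to 3 kb, 0.12 for those of 8 to 12 kb and 0.25 for those of 12 kb or more. Pdgfra and Cspg4 lay above the upper quartile of tested genes in the same bin of length, Olig1, Olig2, Gpr17, Mbp and Cnp lay below the lower quartile, and Sox10 and Ptprz1 lay between the quartiles. With each library's trend on exon length removed, Pdgfra had a log2 fold change of 0.69 (limma adjusted p = 0.0291), Cspg4 0.30 (0.291), Olig2 -0.63 (0.148) and Olig1 -0.71 (0.153), with the limma adjusted p in brackets and 2.01% of tested genes higher and 1.52% lower. With the trend removed and the set as a batch term together, a model chosen after seeing the data, Pdgfra had 0.72 (limma adjusted p = 0.0202) and Olig1 -0.91 (0.0218), Olig2 -0.79 (0.0288), Cnp -0.48 (0.0476) and Mbp -0.47 (0.0371). In that model Cspg4 (0.18, limma adjusted p = 0.199) and Gpr17 (-0.53, limma adjusted p = 0.0722) did not pass. Neither did Sox10 (-0.24, limma adjusted p = 0.252) or Ptprz1 (-0.07, limma adjusted p = 0.599). Of tested genes, 6.14% were called higher and 5.75% lower there.

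**Figure D3:**
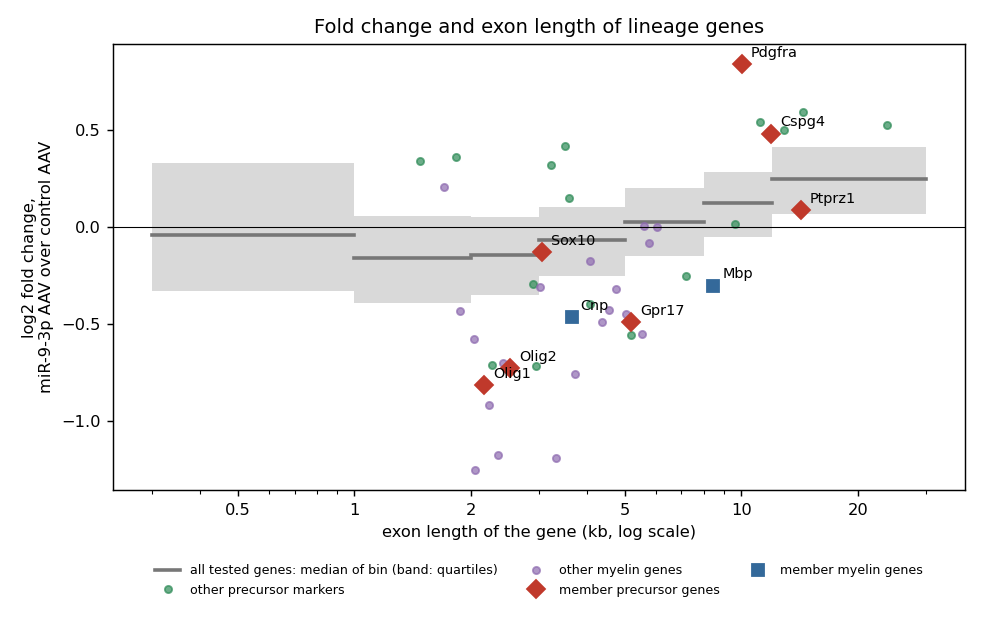
Log2 fold change (vertical axis) against exon length in kb (horizontal log axis) for the member precursor genes (red diamonds), member myelin genes (blue squares) and the other tested precursor (green) and myelin (purple) genes, over the median (grey line) and quartiles (grey band) of all tested genes in bins of length. Pdgfra, Cspg4 and Ptprz1 are the longest members, and Olig1 and Olig2, the shortest, lie at -0.81 and -0.73.

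Among 18 other precursor markers, 16 were tested, 4 were higher and 1 was lower by limma, with a list median of 0.24. Vcan, the proteoglycan versican, measured 15.6, 12.8 and 13.6 FPKM in miR-9-3p AAV and 8.32, 9.61 and 8.76 FPKM in control AAV (log2 fold change 0.60, limma adjusted p = 0.0314). Megf11, which encodes a membrane protein with EGF-like repeats, rose by 0.54, the protocadherin gene Pcdh15 by 0.53, and Tnr, the matrix protein tenascin-R, by 0.50 on the log2 scale; Tnr was named after its value was seen. The exon lengths of the 4 were 11.2 to 23.8 kb, and with the length trend removed 0 of the list were called higher by limma. In the model with both the trend removed and the set term, 4 of the 16 were called higher and 4 lower by limma. The shares of all tested genes were 6.14% and 5.75%. Vcan and Tnr were among the 4 higher, while Megf11 (0.31, limma adjusted p = 0.0868) and Pcdh15 (0.20, limma adjusted p = 0.213) were not called. The 1 gene called lower by limma without these terms was Rlbp1, a retinaldehyde-binding protein. It measured 9.92 ± 1.11 FPKM in miR-9-3p AAV and 17.0 ± 2.46 FPKM in control AAV (SD, n = 3 each, log2 fold change -0.71, limma adjusted p = 0.0379).

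Of 28 other myelin genes 19 were tested, and 16 of the 19 had a log2 fold change below 0, where 52.7% of all tested genes did. By limma 0 were higher and 3 lower, with a list median of -0.45, and with the set as a batch term 7 were lower. Omg, the oligodendrocyte myelin glycoprotein, measured 15.5, 16.9 and 12.8 FPKM in miR-9-3p AAV and 31.8, 30.7 and 25.4 FPKM in control AAV (log2 fold change -0.92, limma adjusted p = 0.0264). Car2, a carbonic anhydrase, had a log2 fold change of -0.70 (limma adjusted p = 0.0285). With the length trend removed, the count of lower genes in the list was 3 as well. Opalin and Mobp, genes of mature myelin, were scarce in both groups. Opalin reached at most 0.0593 FPKM in miR-9-3p AAV and 0.189 FPKM in control AAV, and Mobp 0.241 and 0.304 FPKM. Mog was not: it measured 5.19, 5.02 and 5.81 FPKM in miR-9-3p AAV and 4.77, 4.65 and 4.07 FPKM in control AAV. Its groups did not overlap on the higher side (log2 fold change 0.21, limma adjusted p = 0.222), as for 18.2% of tested genes. Mag (-0.17) and Cldn11 (-0.43) had log2 fold changes below 0, with groups that overlapped. The lowest fold changes of the list, those of Cd9, Trf and Pmp22, belong to genes that other tissues make too, and these stood highest in control AAV library 3, the library with the highest lung level, at 57.6, 18.9 and 53.2 FPKM. Opalin, Mobp, Mog, Mag, Cldn11, Cd9, Trf and Pmp22 were named after their values were seen.

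Of 23 transcription regulators of the lineage 20 were tested, with 2 higher, 1 lower and a median of 0.09. Sox6, which holds precursors back from maturing, rose by 0.50 on the log2 scale (limma adjusted p = 0.0285) and Sox11, of immature neurons and glia, by 0.47 (limma adjusted p = 0.0338). With the length trend removed 0 of the list were called higher and 1 lower by limma. Etv5, a factor induced by ERK signalling, measured 23.2 ± 0.936 FPKM in miR-9-3p AAV and 35.2 ± 1.55 FPKM in control AAV (SD, n = 3 each; log2 fold change -0.58, limma adjusted p = 0.0236). Of 13 markers of committed, premyelinating cells 10 were tested and 0 passed by limma in either direction, while 3 had an unadjusted p under 0.05, all lower, and 1 was called lower by limma-voom. Bcas1, a marker of early myelinating cells, had a log2 fold change of -0.42 (limma adjusted p = 0.0615) and Bmp4 -0.68 (limma adjusted p = 0.0707). The other of the 3 was Lims2, at -1.01 (limma adjusted p = 0.148). It was highest in control AAV library 3, the library with the highest lung level, at 20.2 FPKM. Given the lung level as covariate, Bcas1 had -0.54, Bmp4 -0.43 and Lims2 -0.25. The list median was 0.08. Given the lung level as covariate, list medians were -0.16 for the other precursor markers, -0.02 for the regulators, -0.13 for the committed markers and -0.35 for the other myelin genes, where all tested genes had -0.05.

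**Figure D4:**
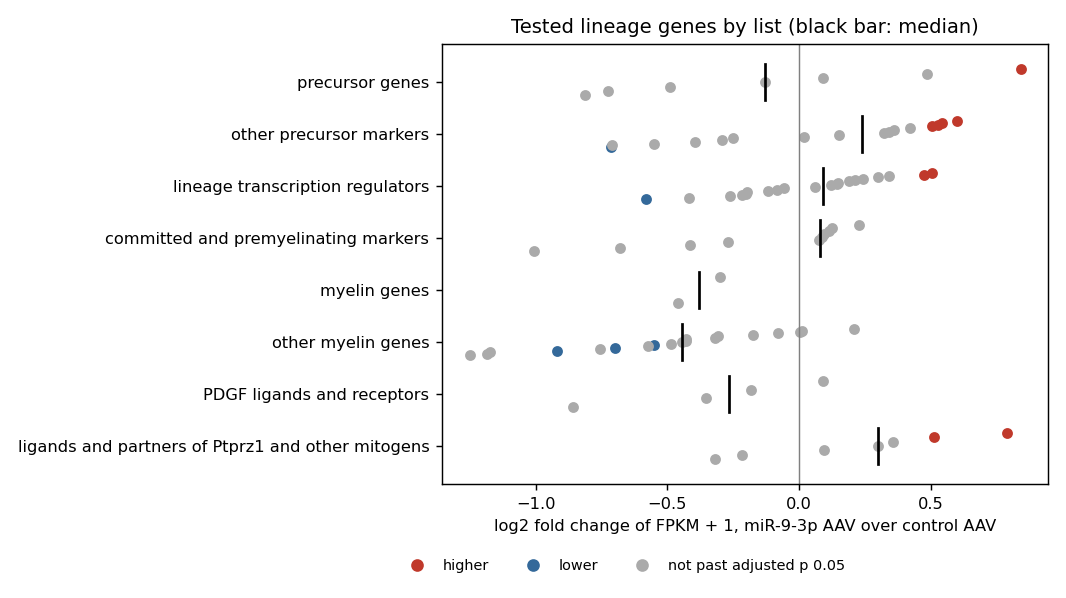
Log2 fold change of each tested gene in 8 lists, with red for called higher, blue for called lower, grey for neither, and a black bar at the median. The precursor lists spread on both sides of 0, and the other myelin genes lie mostly below it, with a median of -0.45.

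For the ligands, Pdgfa, which encodes the main ligand of Pdgfra and was singled out after its value was seen, had 11.6 ± 2.30 FPKM in miR-9-3p AAV and 10.8 ± 0.802 FPKM in control AAV (SD, n = 3 each; log2 fold change 0.09, limma adjusted p = 0.743). Of 4 tested genes among 5 PDGF ligands and receptors 0 passed by limma or limma-voom, and 1, Pdgfrb, had an unadjusted p under 0.05. Pdgfc, another ligand, had a log2 fold change of -0.18 (limma adjusted p = 0.323). Of 7 tested genes among 8 partners of Ptprz1 and other mitogens, 2 were higher and 0 lower. Nrcam, a neuronal cell adhesion molecule, measured 30.7 ± 1.29 FPKM in miR-9-3p AAV and 17.4 ± 0.56 FPKM in control AAV (SD, n = 3 each; log2 fold change 0.79, limma adjusted p = 0.017). Cntn1, the contactin that binds the receptor phosphatase, had a log2 fold change of 0.51 (limma adjusted p = 0.0294).

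Over the 6 libraries the genes whose log2(FPKM + 1) was most like that of Pdgfra, of 12485 ranked, were Lrrc8b, a subunit of volume-regulated anion channels (Pearson r 0.998), Lin28b, which blocks let-7 maturation (0.998), and Ddhd2, a lipase (0.997). Those most like Olig2 were Phgdh, the first enzyme of serine synthesis (r 0.9995), the adaptor gene Traf4 (0.998) and the chaperone gene Dnaja3 (0.997). These values describe 6 libraries, and each pair of genes compared comes from the same libraries, with the same lung level and depth behind both. For the other cells of the cultures, 2 of 13 neuron markers were higher, Dcx by 0.80 and Map2 by 0.65 on the log2 scale, and 0 were lower. Their exon lengths were 12.6 kb for Dcx and 16.4 kb for Map2. With the length trend removed Dcx was called higher (0.60, limma adjusted p = 0.0438) and Map2 was not (0.39, limma adjusted p = 0.0678). The summed level of the neuron markers was 1220 to 1507 FPKM in miR-9-3p AAV and 863 to 1337 FPKM in control AAV. Tubb3 was the largest part of it, with means of 712 FPKM in miR-9-3p AAV and 528 FPKM in control AAV. Of 10 lung epithelium markers, all tested, 0 passed by limma or limma-voom and 0 had an unadjusted p under 0.05, with a summed level of 1639 to 6800.4 FPKM in miR-9-3p AAV and 4672 to 22703 FPKM in control AAV. Lamp3 had a log2 fold change of -1.29 (limma adjusted p = 0.192) and Slc34a2 -1.42 (0.193). Of 11 microglia and macrophage markers 4 were tested and 0 passed by limma or limma-voom, with 1, Cd68, under an unadjusted p of 0.05 (-0.51, limma adjusted p = 0.128). C1qb had -0.77 (limma adjusted p = 0.306), and the summed level was 8.08 to 14.4 FPKM in miR-9-3p AAV and 12.4 to 39.5 FPKM in control AAV.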

How the data were processed

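The authors deposited 1 table of FPKM values, with 1 column for each of 6 libraries, per the file headers. Per the submitters' processing notes, the tools were HISAT2 and Cufflinks 2.2.1 and the build was mm10. The sources used here give no annotation, strand setting or filter. FPKM divides by the library total, so an abundant foreign transcript lowers the other values of its library. GENCODE M21 (GRCm38) supplied symbols, positions, exon lengths and UTRs and matched 52135 of 55416 identifiers. FPKM was multiplied by exon length and by a depth estimated for each library from the steps between its low FPKM values. The products were whole reads, within 0.01, for 98.05% to 98.14% of the values above 0 in a library. These reads were used, rounded, for limma-voom. The 14229 genes that reached 1 FPKM in 3 or more libraries (all 9 members among them) were tested with limma 3.58.1 in R 4.3.3 on log2(FPKM + 1), with an intensity trend and no covariate. The step was tested on simulated data. No libraries of a group agreed within sampling noise (chi-square per degree of freedom 4.72 to 80.6). Members and lists were chosen with earlier results of these data known. Genes named by rule are the members and, per list, the 4 called genes that changed most or, where none was called, the 2 of lowest p. The 3 genes most like each of Pdgfra and Olig2 were added, with Foxd3, listed at 0 throughout, and Scgb1a1 and Bpifa1 for the lung sets. Lims2 and Dnajc7 were named for their overlap with members. Myh11, Slc1a3, Slc1a2, Tnc, Tubb3, Prx and S100b were named outside this rule with their values seen, as were the genes so described above. Alternatives were a replicate block, a pseudocount of 0.1, no filter or one of 5 FPKM, quantile and median-of-ratios scaling, no intensity trend, voom, the lung level as a covariate, the lung set as a batch term, removed trends on exon length or G+C share, and leaving out libraries. The G+C trend and the set term with the length trend were added after seeing the data. Some genes of the marker lists, counted with their lists, are not reported here by name.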

Additional observations from a re-analysis of the deposited data

How the results depend on the processing

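Of the 7 precursor genes, 1 was called higher and 0 lower, and of the 2 myelin genes 0 and 0, by limma over all libraries. The precursor counts were 0 and 0 with the replicate block, 2 and 4 given the lung level as covariate, 2 and 2 given the lung set as batch term, 1 and 2 without each group's library of highest lung level, 2 and 3 with the G+C trend removed, and 1 and 2 with the set term and the length trend removed. Myelin genes called lower were 2, 1, 1, 1 and 2 in the last 5 of these. Leaving out 1 library gave 0 to 1 precursor genes higher and 0 to 1 lower, and 0 to 1 myelin genes lower. Over all genes 554 were higher and 341 lower, 0 and 0 with the replicate block, 109 and 67 with no filter, 1788 and 2293 with the lung level, 1410 and 1243 with the set term, 283 and 214 with the length trend removed, 1302 and 1053 with the G+C trend removed, and 866 and 811 with the set term and the length trend removed. Without each group's library of highest lung level 853 were lower. Leaving out 1 library gave 0 to 459 higher and 0 to 287 lower. The cause was not tested. Same-numbered libraries did not deviate together (r -0.649, 0.111 and -0.535 for numbers 1, 2 and 3). The highest r, 0.621, joined miR-9-3p AAV library 1 and control AAV library 3, the highest in lung level of each group. With lung level in these deviations, the check cannot decide whether same-numbered libraries share a culture. The log2 fold change changed sign for Sox10 without miR-9-3p AAV replicate 1 (0.12) or control AAV replicate 1 (0.07), with a range of -0.35 to 0.12 over single libraries left out, for Ptprz1 with the length trend removed (-0.13), also with the set term (-0.073), and without control AAV replicate 1 (-0.0089, in a range up to 0.19), and for C1qb given the lung level (0.10). Pdgfra kept its sign in 20 of 20 alternatives (0.69 to 0.99), and Olig1 (-1.34 to -0.55), Olig2 (-1.24 to -0.52), Gpr17 (-0.71 to -0.40), Mbp (-0.47 to -0.23) and Cnp (-0.78 to -0.34) in 20 each. Cspg4 kept its sign in 19 (0.18 to 0.64); at a filter of 5 FPKM it was not tested.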
